A study of Drosophila melanogaster with 4 samples.

Results

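The genes broad (br), Eip74EF and Eip75B were examined as windows of GAF occupancy in late embryos of Drosophila melanogaster. Each window was set by coordinates on FlyBase release 5: X from 1470000 to 1590000 for br, 3L from 17560000 to 17640000 for Eip74EF, and 3L from 17930000 to 18080000 for Eip75B. Regions that the authors called enriched, with a score above 0, are called clusters, and a cluster was a member if it shared at least 1 bp with a window. The members numbered 34 of 5694 clusters in ChIP replicate 1, 32 of 5709 in ChIP replicate 2 and 37 of 6474 in the authors' combined list. Of the measured values, only the sign of the score enters this choice. The files hold no gene names, so that each window contains its gene rests on the given coordinates and was not checked against a release 5 annotation.

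The embryos were wild-type Oregon-R (Oregon-R-modENCODE), aged 14 to 16 hours, fixed with formaldehyde, and both groups share this genotype, strain and age. The study has 4 libraries: 2 from chromatin immunoprecipitation with an antibody to GAF followed by sequencing (ChIP-seq), and 2 inputs, that is, chromatin sequenced without immunoprecipitation. Whole embryos from population cages were used, so each value is an average over many embryos and cell types. Whether the ChIP replicates were separate embryo collections is not stated, and their spread may be technical.

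GAF, the GAGA factor encoded by Trithorax-like, binds GA-rich DNA and is known for keeping promoters and Polycomb-regulated elements accessible. The steroid 20-hydroxyecdysone acts through a receptor made of EcR and Usp and first switches on a small set of early genes, among them the members described here. These genes encode transcription factors that in turn control many later genes at moults and metamorphosis. All of them are long genes with several alternative promoters: br encodes a family of BTB zinc-finger proteins, Eip74EF encodes ETS-domain proteins, and Eip75B encodes nuclear receptors related to vertebrate Rev-Erb. In the RefSeq gene table of release 6, br (gene ID 44505) lies between inc and dor and overlaps Mur2B. Eip74EF (gene ID 39962) lies between CycT and Vps60 with no overlapping gene listed. Eip75B (gene ID 39999) lies between CG5290 and CG44006 and overlaps CG32192, CG42393 and the long noncoding RNAs lncRNA:CR45921 and lncRNA:CR45922. The windows may hold parts of such neighbours, and no cluster was assigned to an exon, intron or promoter.

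Taken over their whole length, the windows of Eip74EF and Eip75B were densely occupied and that of br was not. Eip75B had 18 clusters in replicate 1 and 16 in replicate 2, Eip74EF had 10 in each, and br had 6 in each. Per 10 kb this was 1.13 ± 0.0943 clusters at Eip75B, 1.25 ± 0 at Eip74EF and 0.500 ± 0 at br (mean ± SD, n = 2). The replicate lists of 3L as a whole had 0.452 ± 0.00519 clusters per 10 kb and those of X had 0.516 ± 0.0126. The density at Eip74EF was therefore 2.77 ± 0.0318 times that of its arm, at Eip75B 2.51 ± 0.237 times and at br 0.969 ± 0.0237 times (n = 2). The br value averages unlike parts of its window. Before the middle lay 5 br clusters in replicate 1 and 6 in replicate 2, with 35.8% and 38.7% of the sequence inside clusters.

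Covered sequence ran from Eip75B through Eip74EF to br. Clusters took up 50.9% of the Eip75B window in replicate 1 and 46.7% in replicate 2, 38.6% and 38.1% of the Eip74EF window, and 19.0% and 19.4% of the br window. The whole arms stood at 12.1 ± 0.148% for 3L and 14.3 ± 0.244% for X (n = 2). Covered share was thus 4.02 ± 0.29 times the arm value at Eip75B, 3.16 ± 0.0666 times at Eip74EF and 1.34 ± 0.0409 times at br (n = 2). In both replicates the order was Eip75B, Eip74EF, br, with Eip75B above Eip74EF by 12.3 and 8.65 percentage points in replicates 1 and 2, and Eip74EF above br by 19.5 and 18.7. By number of clusters per 10 kb, Eip74EF led Eip75B by 0.05 in replicate 1 and by 0.183 in replicate 2, against an SD of 0.0943 at Eip75B. That lead depends on the overlap rule: counted by midpoint, mean density was 2.49 times the arm's at Eip74EF and 2.51 times at Eip75B. A cluster lying mostly before the Eip74EF window then drops out. These values lie closer together than the SD of 0.237 between replicates at Eip75B, so they set no order. With 2 replicates at each locus, an exact permutation test gave a two-sided p of 0.333 for each pair of loci in both measures, which is the smallest it can give. Paired by replicate, the exact two-sided p was 0.5 for each pair, again the smallest possible. The clusters of a locus are not replicates and were not tested as such.

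**Figure D1:**
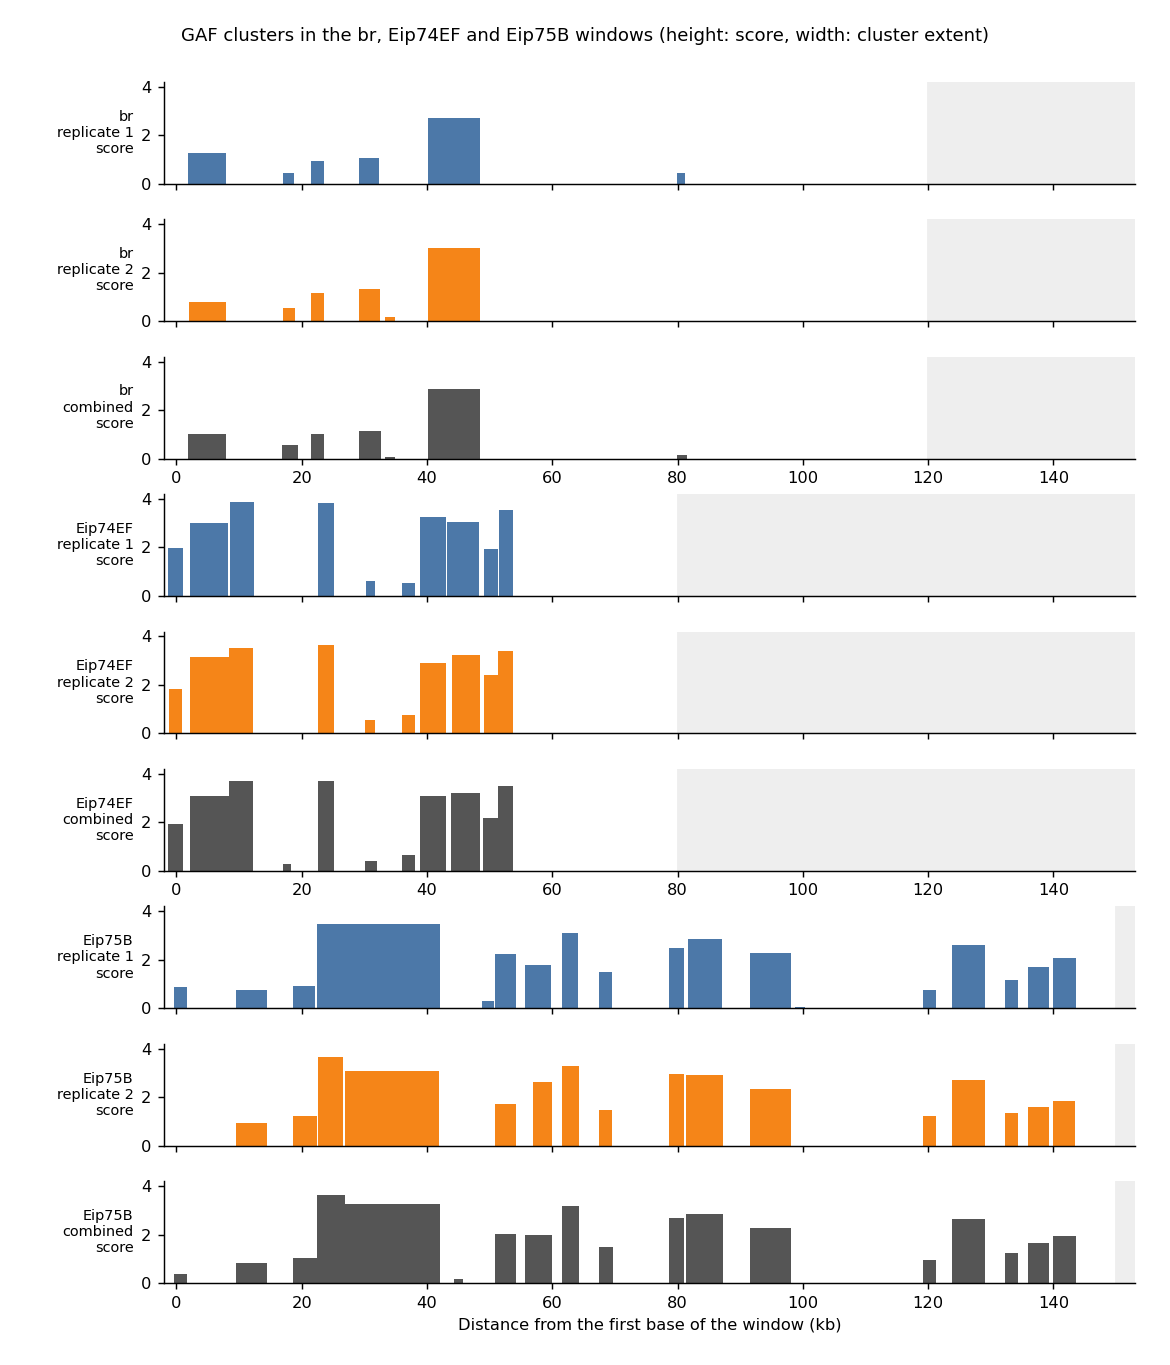
Clusters in each window, drawn by distance from the first base of the window in kb (horizontal) with the authors' score as height (vertical), for both replicates and the combined list. Grey areas lie outside a window. The br clusters end at 48.4 kb apart from 1 weak cluster near 80 kb, the Eip74EF clusters end at 53.7 kb, and Eip75B carries clusters along most of its length.

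To set the windows beside the rest of their arms, each arm was divided into tiles of the same length. Only tiles that touched the window being described were left out, so the tiles beside Eip74EF include the Eip75B window and the reverse. At Eip75B, covered share was above that of all 161 tiles of 3L in both replicates and in the combined list, where the highest tile reached 39.5%, 41.6% and 41.5%. Its number of clusters was exceeded by 1 tile in replicate 1 and by 2 in replicate 2. At Eip74EF, 300 of 304 tiles had a lower covered share in replicate 1 and 299 in replicate 2, and 298 had fewer clusters in each. The same number of clusters was held by 4 tiles in replicate 1 and 2 in replicate 2. The few tiles with a higher covered share than Eip74EF include tiles on the Eip75B window, so they are not all sequence outside the members. The br window lay inside the bulk of X: 132 and 138 of 184 tiles had a lower covered share, and 75 and 78 had fewer clusters. As many clusters as br were held by 22 and 23 tiles, and more by 87 and 83. The median tile had 6, as br did. These ranks are a description, since the windows were placed around genes and the tiles were not.

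**Figure D2:**
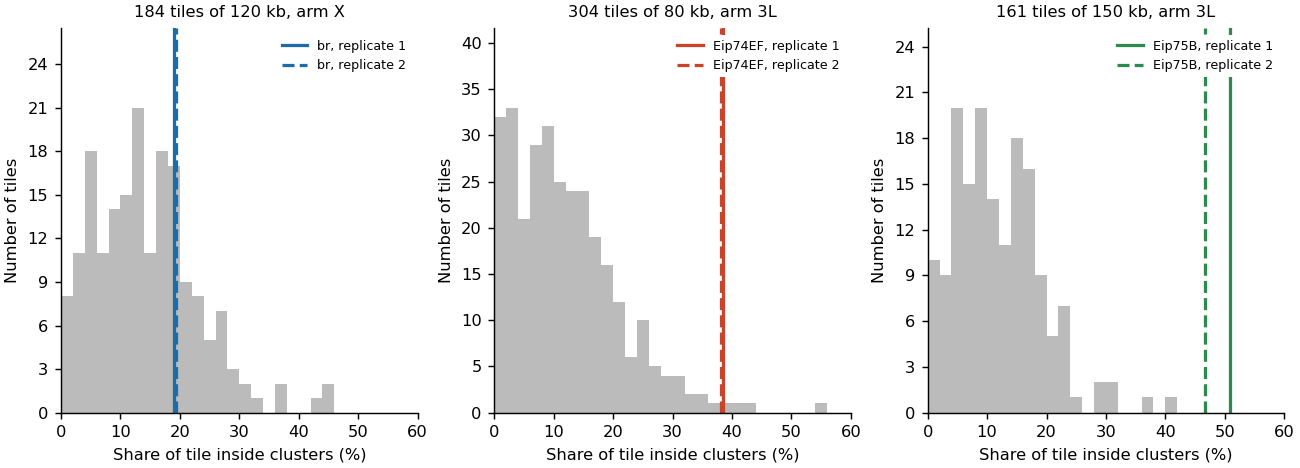
Number of tiles (vertical) by the share of the tile inside clusters in percent (horizontal, mean of both replicates), with vertical lines for each replicate's value in the window of that length. The br lines at 19.0% and 19.4% fall within the main body of X tiles, the Eip74EF lines at 38.6% and 38.1% in its upper tail, and the Eip75B lines at 50.9% and 46.7% beyond every tile.

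By score, the authors' own value for each region, Eip74EF led and br was lowest. The median score was 3.04 in both replicates at Eip74EF, 1.73 and 2.08 at Eip75B, and 1.00 and 0.971 at br. The arm medians were 1.38 ± 0.0181 on 3L and 1.29 ± 0.0693 on X (n = 2). Eip74EF therefore stood 1.65 ± 0.0168 score units above its arm and Eip75B 0.518 ± 0.226 units above, while br stood at -0.301 ± 0.0916 relative to X (n = 2). The value for br turned to 0.0185 in the combined list, so its place against X depends on the list. At Eip75B the difference was 0.791 in the combined list. With the lower-scoring part of each list left out (scores under its median), a choice made by the score itself, the differences were 0.465 at br and 0.104 at Eip75B. That choice left 1 br cluster in each replicate, its strongest, so the value for br is that of a single cluster. With all scores kept, median scores were also set beside tiles of the same length that held at least 3 clusters. For Eip75B, 94 of 143 tiles in replicate 1 and 116 of 140 in replicate 2 had a lower median. For Eip74EF these were 190 of 196 and 190 of 195, and for br 48 of 160 and 40 of 158.

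Strong clusters filled most of the covered sequence of Eip74EF. A score at or above the upper quartile of its arm was held by 6 of 10 clusters there in each replicate (60%, exact interval 26.2 to 87.8%), against a background of 25.0% on 3L. The combined list had 6 of 11 (54.5%, interval 23.4 to 83.3%), and that interval takes in the background of 25.0%. At Eip75B such a score was held by 5 of 18 clusters in replicate 1 (27.8%, exact interval 9.69 to 53.5%) and by 7 of 16 in replicate 2 (43.8%, interval 19.8 to 70.1%), which is near that background in the first and within counting error of it in both. At br it was 1 of 6 in each replicate, against a background of 25.1% on X. Such clusters made up 78.2% and 77.0% of the covered bases at Eip74EF, 46.2% and 54.4% at Eip75B, and 36.4% and 35.7% at br, where the arms had 33.9% and 34.2% on 3L and 37.2% and 37.0% on X. The exact binomial intervals treat clusters as independent and cover counting error only.

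At br, which encodes BTB zinc-finger proteins required for metamorphosis, occupancy gathered in the first part of the window. The strongest and widest br cluster ran 8316 bp on X from 1510090 to 1518405, and scored 2.70 in replicate 1 and 3.04 in replicate 2 (2.87 ± 0.24, n = 2). Its score exceeded that of 86.8% of the combined clusters of X, and it ranked 23 among them by width. The next highest combined score at br was 1.14.

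The remaining br clusters found in both replicates scored near or below the median of X. The 6103 bp cluster on X from 1471894 to 1477996 scored 1.26 in replicate 1 and 0.799 in replicate 2 (1.03 ± 0.326, n = 2), a replicate difference of 0.46. It was wider than 96.3% of the combined clusters of X but scored above 50.9% of them. Between it and the strong cluster lay a 3503 bp cluster (1499086 to 1502588) that averaged 1.21 ± 0.184. A 2104 bp cluster (1491539 to 1493642) averaged 1.04 ± 0.151, and a 2463 bp cluster (1486911 to 1489373) averaged 0.488 ± 0.0596 (SD, n = 2). These followed each other at gaps of 2165 and 5443 bp.

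Beyond the strong br cluster the window was nearly empty. In the combined list, 31.5 kb from 1518406 to 1549898 and 38.6 kb from 1551436 to the window's end at 1590000 held no cluster. They were separated by a single 1537 bp cluster from 1549899 to 1551435 with a score of 0.156, which replicate 1 had at 0.43 and replicate 2 lacked. Replicate 2 therefore had no cluster over 71.6 kb, from 1518394 to 1590000. Divided at its middle, the br window was 35.8% covered before the middle and 2.19% after it in replicate 1, and 38.7% and 0% in replicate 2.

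At Eip74EF, which encodes ETS-domain transcription factors induced early by the hormone, strong clusters lay in close succession. The highest score belonged to a compact cluster of 2534 bp on 3L from 17582643 to 17585176, at 3.83 in replicate 1 and 3.63 in replicate 2 (3.73 ± 0.14, n = 2). The next, from 17568445 to 17572302, scored 3.88 and 3.51 (3.69 ± 0.255). These scores differed by less than the spread between replicates. They exceeded the scores of 96.4% and 96.3% of the combined clusters of 3L.

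Most of the other strong Eip74EF clusters formed a run past the middle of the locus's occupied stretch. The run held 5 clusters less than 1 kb apart over 17.7 kb, from 17596033 to 17613709, in both replicates and in the combined list, and clusters covered 87.8% of it. Its last cluster, from 17611393 to 17613709, scored 3.53 in replicate 1 and 3.41 in replicate 2. Before it, a 4623 bp cluster (17603785 to 17608407) had scores of 3.06 and 3.24. A 4209 bp cluster (17598861 to 17603069) had 3.27 and 2.92, and a 2324 bp cluster (17609021 to 17611344) had 1.95 and 2.40. The weakest of the run, from 17596033 to 17598084, scored 0.552 and 0.764, so the run joined strong and weak clusters.

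A second Eip74EF run paired the 6224 bp cluster from 17562131 to 17568354, the widest of the locus, with the cluster that begins 90 bp after it. The wide cluster scored 3.01 in replicate 1 and 3.15 in replicate 2, and the run spanned 10.2 kb. After the last cluster, 26.3 kb from 17613710 to the window's end at 17640000 held no cluster in any list. The cluster from 17558728 to 17561012 reached across the window's start and scored 2.00 and 1.84.

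Eip75B, whose nuclear receptor products bind heme and act as repressors in the hormone cascade, carried the broadest cluster of the members. In the combined list the cluster on 3L from 17956956 to 17972064 was 15109 bp wide, the widest of 3L and of rank 7 in the whole list. Replicate 2 had it as 14931 bp at a score of 3.09, rank 6 by width in its list. Replicate 1 had a single cluster of 19593 bp from 17952451 to 17972043 at 3.48, the widest of its whole list. Most of this stretch was held by 2 clusters in replicate 2 and in the combined list, and the cluster before them in each list touched its edge. In the combined list a gap of 105 bp parted the broad cluster from one of 4364 bp that scored 3.63. That neighbour, from 17952487 to 17956850, had the highest combined score of the locus and falls outside the naming rule, because it touched 2 clusters of replicate 2. With the cluster before it, from 17948667 to 17952456, the stretch spanned 23.4 kb, of which clusters covered 99.4%.

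The other strong Eip75B clusters were spread along the rest of the window. A 2709 bp cluster from 17991554 to 17994262 scored 3.10 in replicate 1 and 3.30 in replicate 2 (3.20 ± 0.142, n = 2). Next to each other, 329 bp apart, lay clusters of 2367 bp (18008650 to 18011016) and 5836 bp (18011346 to 18017181), which averaged 2.72 ± 0.35 and 2.90 ± 0.0362. A cluster of 5267 bp (18053852 to 18059118) averaged 2.67 ± 0.0641 (SD, n = 2).

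Clusters of lower score made up the rest of Eip75B. Those from 18021555 to 18028170, 17985719 to 17989883, 17980839 to 17984247 and 18069896 to 18073524 averaged between 1.95 and 2.30 over the replicates, and the other matched clusters between 0.84 and 1.65. The one from 17985719 to 17989883 scored 1.78 in replicate 1 and 2.64 in replicate 2, the largest replicate difference among the matched clusters of the loci. Replicate 2 began this cluster 1280 bp later, at 17986936 against 17985656. The longest empty stretch inside the window was 21.0 kb in the combined list, from 18028171 to 18049208. It was 18.9 kb in replicate 1, which had an additional cluster from 18028775 to 18030378 at a score of 0.0633.

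Close spacing was common at Eip74EF. The combined clusters there had a median gap to the next of 947 bp, against 8585 bp on 3L, and 5 of 10 gaps were under 1 kb, where the background on 3L was 12.1%. At Eip75B the median gap was 2836 bp and 4 of 18 gaps were under 1 kb. At br the median gap was 5339 bp, against 7239 bp on X, and 1 of 6 was under 1 kb, beside a background of 13.0%. The limit of 1 kb was chosen after the gaps had been seen. Gaps at a locus were taken only between clusters of its window, whereas the arm values hold all gaps. The empty window ends, 38.6 kb at br and 26.3 kb at Eip74EF, therefore do not enter, which makes spacing there look closer.

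By median, the clusters were widest at Eip75B. The median width was 3383 bp in replicate 1 and 3423 bp in replicate 2 at Eip75B, 2410 bp in both at Eip74EF, and 2641 and 2745 bp at br. Against the arm, this was 1170 ± 26.2 bp more at Eip75B, 177 ± 2.12 bp more at Eip74EF and 490 ± 60.5 bp more at br (n = 2). In the combined list the differences were 1189.5 bp, 104.5 bp and 283.5 bp in the same order, smaller at Eip74EF and br. Clusters of 5 kb or more numbered 4 of 19 in the combined list at Eip75B and 1 of 11 at Eip74EF, where the background on 3L was 5.45%. The Eip74EF count depended on the list, with 2 of 10 in replicate 1 and 1 of 10 in replicate 2. The 3L backgrounds there were 5.27% and 5.46%. Eip75B had 4 such clusters in each list. At br clusters of 5 kb or more were 2 of 7 in the combined list, beside a background of 7.41% on X. Wide and strong did not always go together: the Eip74EF clusters with the highest scores were 2534 and 3858 bp wide, and the br cluster of 6103 bp scored 1.03. Yet the widest br cluster, of 8316 bp, was also its strongest. The widest clusters of Eip75B (15109 bp) and Eip74EF (6224 bp) scored above 92.1% and 89.3% of the combined clusters of 3L. No relation between width and score was computed.

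**Figure D3:**
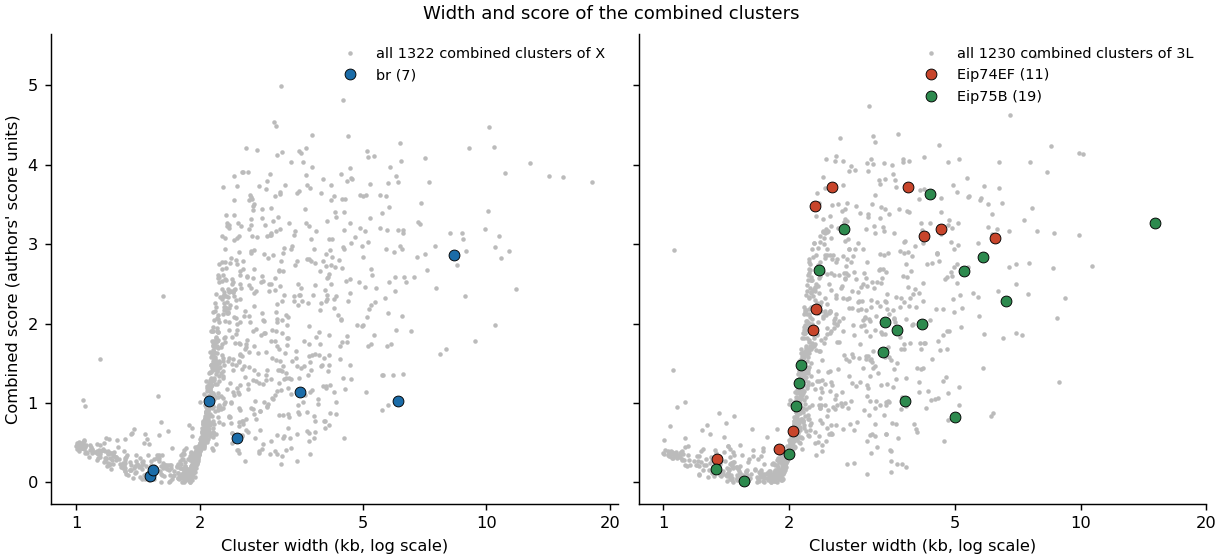
Width in kb on a log scale (horizontal) against the combined score (vertical) for each combined cluster of X (left) and 3L (right), with the members as coloured points. The 15.1 kb Eip75B cluster stands at the right edge of 3L, Eip74EF clusters near 3.7 are 2.5 and 3.9 kb wide, and the br clusters other than the one at 2.86 lie at or below 1.14.

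The replicates found mostly the same members. Both replicates had a cluster at 10 of 11 combined clusters of Eip74EF (90.9%, exact interval 58.7 to 99.8%) and at 16 of 19 of Eip75B (84.2%, interval 60.4 to 96.6%), where the background on 3L was 82.4%. At br it was 5 of 7 (71.4%, interval 29.0 to 96.3%), beside a background of 78.7% on X. None of these shares can be told from its background at these numbers. Of the bases covered in either replicate, both covered 95.0% at Eip74EF, 89.2% at Eip75B and 86.5% at br, beside 86.4% on 3L and 85.1% on X.

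The combined clusters that a replicate lacked were narrow and weak by combined score, at 0.36 or less. Found in neither replicate were the Eip74EF cluster from 17576968 to 17578315 at a combined score of 0.297, the Eip75B cluster from 17974367 to 17975707 at 0.174 and the Eip75B cluster from 18079693 to 18081257 at 0.0119. This was 1 of 11 at Eip74EF and 2 of 19 at Eip75B, against a background of 8.05% on 3L. Replicate 1 alone had the Eip75B cluster from 17929665 to 17931664, which crosses the window's start, at 0.862, and the br cluster at 0.43 described above. In that list the score of 0.862 was above some Eip75B clusters found in both replicates, such as those at 0.736 and 0.741. Replicate 2 alone had the br cluster from 1503346 to 1504854, at 0.185. Combined clusters found in a single replicate were thus 2 of 7 at br and 1 of 19 at Eip75B, beside backgrounds of 12.9% on X and 9.59% on 3L. These combined clusters were between 1341 and 2000 bp wide. Outside these counts, replicate 1 had Eip75B clusters from 17978758 to 17980714 at 0.314 and from 18028775 to 18030378 at 0.0633. Neither had an enriched counterpart in replicate 2 or in the combined list.

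Scores of the 28 members matched 1 to 1 in both replicates and the combined list differed between replicates about as much as elsewhere. The SD of a member's score between replicates was 0.222 over these 28, against 0.2 over all 5006 matched clusters. It was 0.178 at Eip74EF (10 clusters), 0.212 at br (5) and 0.255 at Eip75B (13). Replicate 2 was higher at 17 of the 28, as it was at 2907 of the 5006. Edges were placed closely, with a median difference of 26 bp at the start and 25 bp at the end.

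**Figure D4:**
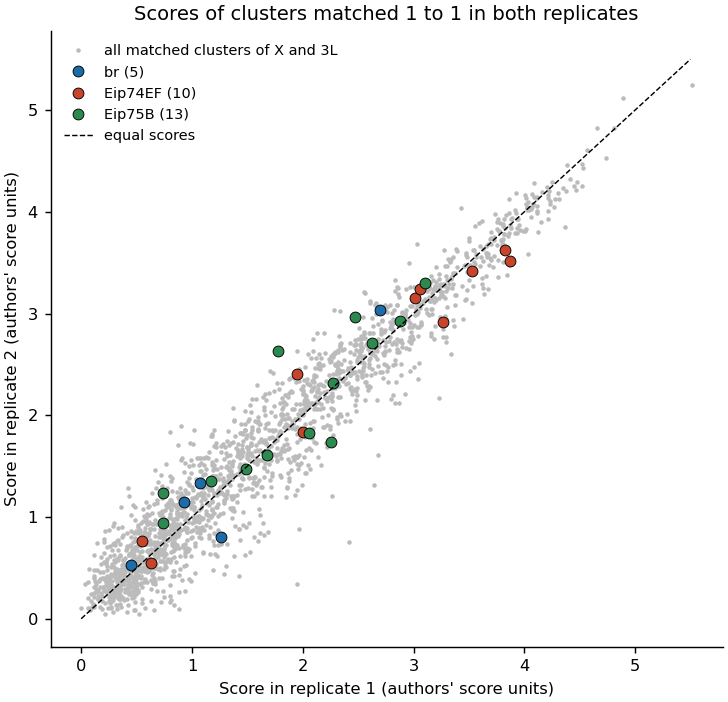
Score in replicate 1 (horizontal) against score in replicate 2 (vertical), in the authors' score units, for clusters of X and 3L matched 1 to 1, with members coloured and a dashed line of equal scores. Members follow the line; the Eip75B point farthest from it has 1.78 in replicate 1 and 2.64 in replicate 2.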

How the data were processed

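The analysis used 3 deposited region lists, 1 for each GAF ChIP replicate and 1 combined list. Coordinates follow FlyBase release 5, per the file headers. Reads were aligned with Bowtie 0.12.7, per the submitters' processing notes. The region caller, its thresholds and how the replicates were combined were not given in the sources used here. The deposited score of each region is the authors' own signed value, whose scale is not stated, so differences in score units were taken and no fold. The lists give no read counts: depth is unknown, and the inputs were not analysed here.

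From these lists, cluster number per 10 kb, covered share (clipped at the window), widths, gaps and scores were computed for each window and whole arm, window included, in Python 3.11.15 with numpy 2.4.6 and scipy 1.17.1. Values are given per replicate with mean and SD. Overlap meant at least 1 shared bp. Shares have exact (Clopper-Pearson) 95% intervals. Counting, coverage and overlap were tested on simulated data. Pairs of loci were compared within each replicate and with an exact permutation test, whose smallest two-sided p with 2 replicates at each locus is 0.333, or 0.5 when paired by replicate.

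The members, lists and rules were chosen with earlier results of these data known. The rule named the 5 highest-scoring combined clusters of each locus that overlap 1 cluster in each replicate, the widest, the longest empty stretch and clusters a replicate lacks. The RefSeq table is of release 6. It was used for names and neighbours alone, so other ecdysone pathway genes and promoter motifs were not analysed here. Alternatives were another overlap rule, window, list, score range and arm reference.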

Additional observations from a re-analysis of the deposited data

How the results depend on the processing

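Density, covered share and median score stayed above the arm at Eip74EF and Eip75B under each alternative run for them; widths, gaps and upper-quartile counts were not recomputed. By 50% reciprocal overlap, the share of Eip75B clusters found in both replicates was 78.9%, below the 82.0% of 3L under that rule, where at 1 bp it was above. Clusters at or above the list median, a filter on the score, numbered 1 and 1 at br, 8 and 8 at Eip74EF and 11 and 12 at Eip75B (replicate 1, then 2). With these alone, density relative to the arm was 0.333 at br, 4.32 at Eip74EF and 3.31 at Eip75B, and covered share relative to the arm was 0.786 (reversed) at br, 4.49 at Eip74EF and 5.12 at Eip75B. The score difference from the arm was then 0.465 (reversed) at br, where it is the value of 1 cluster chosen by its score, 0.809 at Eip74EF and 0.104 at Eip75B. Under this filter 100% of the combined clusters were found in both replicates at each locus (2 of 2 at br, 8 of 8 at Eip74EF, 13 of 13 at Eip75B), beside 99.5% on X and 99.7% on 3L. In the combined list, the score difference was 0.0185 (reversed) at br, 1.94 at Eip74EF and 0.791 at Eip75B, and the covered share ratio at Eip74EF was 3.04. With windows 10 kb wider on each side, the density ratio at br was 0.831 and covered share ratios were 1.15 at br and 3.67 at Eip75B. By midpoint, Eip74EF had a density ratio of 2.49, a covered share ratio of 3.05 and a score difference of 1.72. Without the 2 Mb of the arm nearest the centromere, density ratios were 0.924 at br and 2.64 at Eip74EF, covered share ratios 1.27 and 3.00, and the score difference at Eip74EF 1.62. The cause of these shifts was not tested. The remaining 30 values moved by less than the spread between replicates or, for shares, stayed within their interval. With 2 replicates, the ratios and score differences of either one alone lie within their SD by construction, which says nothing about stability. No paired analysis was possible because the inputs, which share the replicate numbers of the ChIP libraries, were not analysed here. Pairing the loci by replicate was possible and gave an exact two-sided p of 0.5 for each pair, the smallest possible. Depth is unknown, so whether weak clusters seen in 1 list were missed in another cannot be said.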

Other observations

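At Eip75B the combined list also had 2 regions called depleted, a type that the comparisons above do not use. The one on 3L from 17978855 to 17980660 had a score of -0.000696 and lay on a cluster that replicate 1 called enriched at 0.314. The one from 18028821 to 18030398 had a score of -0.0589 and lay on a replicate 1 cluster at 0.0633. Replicate 2 had no region of either sign there. The br and Eip74EF windows had none in any list, where X as a whole had 28 in the combined list, 0 in replicate 1 and 1 in replicate 2, and 3L had 44, 3 and 1.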
